A study of Mus musculus with 3 samples.

Results

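Nuclei that carry transcripts of Pdzrn4 and Sult5a1 were drawn from 3 single-nucleus RNA libraries of mouse lacrimal gland, which makes the watery part of tears. Pdzrn4 encodes a protein with PDZ and RING finger domains, and Sult5a1 encodes a member of the cytosolic sulfotransferase family. A nucleus was a member when it had at least 3 UMIs (unique molecular identifiers, each 1 captured transcript) of the 2 genes together, at least 0.1% of its UMIs from them, at least 1 Sult5a1 UMI, and at most 0.1% of its UMIs from the sum of Lama2, Slit3, Ptprb, Skap1, F13a1 and Mrc1, which are genes of fibroblasts, endothelium, lymphocytes and macrophages. The rule gave 127 members among 29220 nuclei that had at least 500 UMIs, at least 300 genes and at most 5% of UMIs from mitochondrial genes. The members had been described as duct-like. Their own transcripts placed most of them elsewhere: 81 lay in a cluster of nuclei high in a list of myoepithelial markers. Another 39 lay in a small cluster led by Slit2 and other genes, with basal and duct transcripts. The members are therefore called Pdzrn4 and Sult5a1 nuclei here.

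Each of the 3 groups had 1 library: dry eye mice given tamsulosin, dry eye mice without it, and normal control mice. Dry eye had been brought on by scopolamine together with dry stress in both of the first 2 groups, so the tamsulosin library carries the scopolamine treatment too. Scopolamine is an antagonist of muscarinic acetylcholine receptors and tamsulosin one of alpha-1 adrenergic receptors. Below, tamsulosin, scopolamine and control stand for these libraries. Strain, age, sex, doses, times and the number of animals behind each library are not given in the sources used here, so no spread between animals could be measured and no difference between libraries was tested. The intervals given are 95% intervals that cover counting error only, exact binomial for shares and for ratios of counts and exact Poisson for levels.

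Myoepithelial cells are flattened epithelial cells that wrap the secretory end pieces of exocrine glands and contract to push out fluid. They carry smooth muscle proteins such as alpha smooth muscle actin (Acta2) and smooth muscle myosin (Myh11), and, as basal epithelial cells do, the transcription factor p63 (Trp63), basal keratins, laminin-332 and hemidesmosome parts. Ducts modify and carry the fluid, and have luminal keratins and transcription factors such as Tfcp2l1. Basal cells that hold p63 without smooth muscle genes lie under the luminal layer of larger ducts in many glands.

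The genes that chose the members lie on different chromosomes. In the GENCODE annotation of GRCm38, Pdzrn4 lies at chr15:92396881-92771819 on the plus strand, Sult5a1 at chr8:123140192-123158315 on the minus strand, and Trp63, the third marker named for these nuclei, at chr16:25683763-25892102 on the plus strand. All are protein-coding. Acta2, a contractile gene found mainly in the larger of the members' 2 main populations, lies at chr19:34241090-34255590 on the minus strand. The windows from 250 bases before to 50 bases after the annotated starts of Sult5a1, Pdzrn4 (its first start) and Acta2, from RefSeq on GRCm38.p6, are shown because a reader may want to set the promoters of the 2 choosing genes beside that of a contractile gene found in the same nuclei. They span chr8:123158231-123158530 (minus strand), chr15:92396560-92396859 (plus strand) and chr19:34255324-34255623 (minus strand). The capitals mark the CArG elements of the Acta2 promoter, which serum response factor is known to bind in smooth muscle. They were found by their form, CC and GG around 6 letters of which at least 5 are A or T, and are spelled CCCTATATGG and CCTTGTTTGG.
Sult5a1: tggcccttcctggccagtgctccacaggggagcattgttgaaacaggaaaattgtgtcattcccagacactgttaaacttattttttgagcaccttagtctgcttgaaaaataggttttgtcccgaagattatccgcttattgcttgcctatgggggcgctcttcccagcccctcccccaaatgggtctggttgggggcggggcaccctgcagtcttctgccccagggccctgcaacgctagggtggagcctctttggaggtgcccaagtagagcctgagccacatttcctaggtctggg
Pdzrn4: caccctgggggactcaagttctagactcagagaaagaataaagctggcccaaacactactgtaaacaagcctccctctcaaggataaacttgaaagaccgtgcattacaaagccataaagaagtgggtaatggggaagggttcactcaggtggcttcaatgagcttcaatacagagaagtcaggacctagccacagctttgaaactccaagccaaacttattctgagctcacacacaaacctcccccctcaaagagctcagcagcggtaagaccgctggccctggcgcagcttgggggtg
Acta2: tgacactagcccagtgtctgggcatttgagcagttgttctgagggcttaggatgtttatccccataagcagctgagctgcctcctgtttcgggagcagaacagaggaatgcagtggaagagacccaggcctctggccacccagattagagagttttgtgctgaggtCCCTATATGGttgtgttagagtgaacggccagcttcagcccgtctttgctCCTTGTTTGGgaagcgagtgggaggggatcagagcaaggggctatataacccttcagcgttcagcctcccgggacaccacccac

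Both elements were searched on both strands of all 32851 promoter windows of 300 bases in that table. The letters CCCTATATGG were found in 9 windows (0.0274%), CCTTGTTTGG in 26 (0.0792%), and both together in 1 window, that of Acta2, where they begin 84 and 34 bases before the start. The spellings were read from the Acta2 window itself, so finding both there was fixed in advance. Other spellings of the CArG form were not searched for. Neither CCCTATATGG nor CCTTGTTTGG was found in the Sult5a1 window, in the first Pdzrn4 window or in a second Pdzrn4 window at chr15:92596859-92597158. These letters are a description of short windows and say nothing of whether a factor acts there.

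Of the kept nuclei, 30 of 12020 were members in the tamsulosin library, 60 of 10006 in the scopolamine library and 37 of 7194 in the control library. The shares were 0.25% (0.168 to 0.356) in tamsulosin, 0.600% (0.458 to 0.771) in scopolamine and 0.514% (0.362 to 0.708) in control. At this depth the intervals of tamsulosin and control did not overlap, and those of scopolamine and control did. The rule needs 3 UMIs and therefore depends on depth: the other kept nuclei had a median of 3359 UMIs in tamsulosin, 1732 in scopolamine and 2320 in control. With nuclei thinned to 1500 UMIs before the rule was applied, which left 12020, 5525 and 7141 nuclei of the tamsulosin, scopolamine and control libraries, the share was 0.0915% (0.0457 to 0.164) in tamsulosin, 0.615% (0.427 to 0.859) in scopolamine and 0.322% (0.204 to 0.483) in control. Among nuclei of at least 1600 UMIs it was 0.252% (0.169 to 0.361) in tamsulosin, 1.04% (0.784 to 1.35) in scopolamine and 0.561% (0.393 to 0.775) in control. There the intervals of scopolamine and control did not overlap. The cut left 11530 of 12020, 5293 of 10006 and 6421 of 7194 nuclei, with 29 of 30, 55 of 60 and 36 of 37 members, in the same order. The scopolamine share thus rose because many nuclei that were not members were dropped. The members summed to 91420, 197975 and 120207 UMIs in the tamsulosin, scopolamine and control libraries, with medians of 2835, 2607 and 3050 UMIs per nucleus. Of the barcodes, 35 were shared by the tamsulosin and scopolamine libraries, 30 by tamsulosin and control and 22 by scopolamine and control; none of them was a member's.

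Members in the myoepithelial-like cluster made up 0.225% (0.148 to 0.327) of kept nuclei in tamsulosin, 0.300% (0.202 to 0.428) in scopolamine and 0.334% (0.214 to 0.496) in control, with 27, 30 and 24 nuclei in that order. Members in the cluster led by Slit2 made up 0.0250% (0.00515 to 0.0729) in tamsulosin, 0.270% (0.178 to 0.392) in scopolamine and 0.125% (0.0572 to 0.237) in control, with 3, 27 and 9 nuclei in that order. The 3 intervals of the myoepithelial-like members overlapped, whereas that of the tamsulosin Slit2-cluster members lay below that of the scopolamine ones. That whole cluster held 23 tamsulosin, 83 scopolamine and 19 control nuclei, and 39 of its 125 nuclei were members (31.2%, 23.2 to 40.1). Of the 1379 nuclei of the myoepithelial-like cluster, 81 were members (5.87%, 4.69 to 7.25), and the share was 5.78% in tamsulosin, 5.25% in scopolamine and 7.04% in control.

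**Figure D1:**
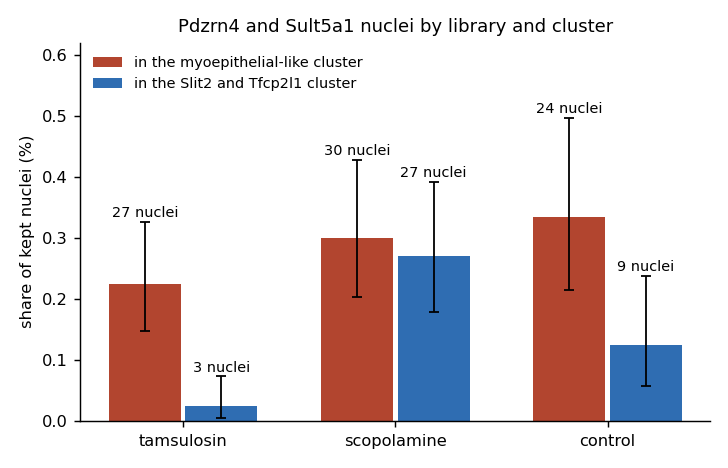
Share of kept nuclei (%, vertical axis from 0) that were Pdzrn4 and Sult5a1 nuclei in each library (horizontal axis), split by the cluster that held them; bars are the shares of 1 library each, error bars are exact 95% binomial intervals for counting error, and the number of nuclei stands above each bar. The bars of the myoepithelial-like cluster lie between 0.225% and 0.334%, while those of the Slit2 and Tfcp2l1 cluster are 0.0250% in tamsulosin, 0.270% in scopolamine and 0.125% in control.

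The values that chose the members were low. The 2 genes together had 3 to 58 UMIs in a member, with a median of 5, or 0.101% to 0.885% of the nucleus's UMIs. Sult5a1 had 1 to 8 UMIs in a member, and Pdzrn4 0 to 54. Of the 127 members, 42 had no Pdzrn4 UMI and were chosen by Sult5a1 alone. Just inside the rule were 26 members at 3 UMIs, 18 of them in the myoepithelial-like cluster and 7 in the Slit2 cluster. Just outside it were 95 nuclei at 2 UMIs, of which 73 lay in the myoepithelial-like cluster and 12 in the Slit2 cluster. A further 121 nuclei failed on the share alone, with 3 to 11 UMIs of the 2 genes but a median depth of 8531 UMIs, and 106 of those lay in the myoepithelial-like cluster. Another 31 nuclei failed only for lack of a Sult5a1 UMI.

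The levels of the 2 choosing genes, given as a description, differed between the populations. On the scale of CPM (a gene's UMIs per 1000000 UMIs of the nuclei summed), Sult5a1 was at 885, 1102 and 744 CPM in myoepithelial-like members of the tamsulosin, scopolamine and control libraries, and at 674, 888 and 1322 CPM in Slit2-cluster members. Pdzrn4 was at 594, 723 and 911 CPM in myoepithelial-like members and at 1010, 1646 and 2339 CPM in Slit2-cluster members, in the same order of libraries, and so was higher in the Slit2-cluster members of each library. The macrophage-like cluster should lack both genes and was taken as a background. There Sult5a1 was at 6.59, 7.11 and 5.34 CPM and Pdzrn4 at 1.32, 9.29 and 8.39 CPM in the tamsulosin, scopolamine and control libraries. That cluster held 1 scopolamine member, whose UMIs are counted in these levels. The part of free RNA or doublets in this background was not tested.

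Trp63 was not part of the rule. A Trp63 UMI was found in 96 of 127 members (75.6%, 67.2 to 82.8; median depth 2817 UMIs), against 51 of 1618 macrophage-like nuclei (3.15%, 2.36 to 4.12; median depth 2262 UMIs). Trp63 was at 1203 CPM (989 to 1450) in tamsulosin members, 828 (706 to 965) in scopolamine members and 674 (535 to 838) in control members, against 27.5, 54.4 and 29.3 CPM in the other kept nuclei of the same libraries. The share of members with a Trp63 UMI was 64 of 81 in the myoepithelial-like cluster (79.0%, 68.5 to 87.3) and 28 of 39 in the Slit2 cluster (71.8%, 55.1 to 85.0), and after thinning each nucleus to 1500 UMIs 53 of 80 (66.3%) and 12 of 36 (33.3%). Other nuclei of the myoepithelial-like cluster had it in 895 of 1298 (69.0%, 66.4 to 71.5). The 31 members without a Trp63 UMI were shallower, with a median of 2280 UMIs against 3021 in the 96 with one, and 17 of them lay in the myoepithelial-like cluster and 11 in the Slit2 cluster.

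Of genes measured in the members and the other nuclei, which means at least 30 UMIs in all and a mean of at least 20 CPM, 438 of 6102 (7.18%) were at least 2-fold higher in members in all 3 libraries, and 134 (2.20%) were at least 2-fold lower in all 3. Since the members were chosen by values of the same nuclei, this comparison was not tested and is a description. Of the 15 measured basal genes, 9 were among the higher ones, including Trp63, Krt5, Col17a1, Itga6, Lama3 and Dsc3, and none among the lower. Pard3, Dst, Itgb4, Itga3, Dsp and Perp were measured and missed 2-fold in at least 1 library, with Perp's smallest log2 ratio at -0.21, and Krt14, Krt15, Krt17, Dsg3 and Pkp1 were too low to be measured. All 6 measured markers of the myoepithelial list were higher, namely Acta2, Myh11, Mylk, Krt5, Lgr6 and Tagln. Of the duct marker list 0 of 10 measured genes were higher in all 3 libraries, and of 12 measured luminal keratins and junction genes likewise 0. Both counts are near the background of 7.18% over all genes. They pool all members, while the Slit2 cluster on its own had 9 of 15 duct markers raised, as given below. The median over all measured genes of the smallest log2 ratio was -0.49, against 2.50 for the basal list, 2.40 for the myoepithelial list, -0.86 for the duct markers and -1.18 for the luminal genes.

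The 25 genes with the highest smallest ratio are ordered below by what each is known to do, an order made after their values were seen that says nothing of a theme among them. Lama3, which encodes a chain of laminin-332, was at 241, 298 and 341 CPM in members of the tamsulosin, scopolamine and control libraries, against 8.07, 20.6 and 13.2 CPM in the other nuclei. Col4a6, a chain of the type IV collagen of basement membranes, was at 1028, 763 and 1048 CPM in members, against 27.8, 59.5 and 49.9 CPM in the others. Both genes were picked by these summed levels, which do not show how far single nuclei overlap. Matn2, a matrilin of the extracellular matrix, and Antxr1, a collagen-binding receptor, were 11.6-fold and 12.4-fold higher at the least, on the scale of CPM with 5 added.

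Among genes of the cell surface and of signalling, Ntrk3, the receptor of neurotrophin-3, was at 2844, 2096 and 3511 CPM in tamsulosin, scopolamine and control members, against 84.1, 194 and 143 CPM in the other nuclei. Kcnh1, a voltage-gated potassium channel, stood first in the list, with 514, 399 and 283 CPM in members, against 8.76, 20.8 and 13.6 CPM in the others. The neuronal guidance genes Slit2, whose product binds Robo receptors, and Sema5a, a semaphorin, were 10.5-fold and 10.4-fold higher at the least. Cdh13, a cadherin without a cytoplasmic tail, Dsc3, a desmosomal cadherin, Adcy8, a calcium-stimulated adenylyl cyclase, and Sfrp1, a secreted antagonist of Wnt, were between 10.3-fold and 13.9-fold higher at the least.

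Of genes known from contractile cells, Acta2 was at 208, 328 and 541 CPM in tamsulosin, scopolamine and control members, against 10.6, 29.2 and 20.5 CPM in the other nuclei. Fhod3, a formin that builds actin filaments in muscle, was at 1849, 1066 and 2063 CPM in members, against 41.8, 101 and 89.5 CPM in the others. Ryr3, a calcium release channel of the sarcoplasmic reticulum, was at 252, 318 and 491 CPM in members, against 9.54, 26.8 and 19.8 CPM in the others. These came mainly from the myoepithelial-like members, as given below: of Acta2's UMIs 142 lay there and 2 in Slit2-cluster members. Other named higher genes were Btbd11, Mir205hg (the host transcript of the microRNA miR-205), Klhl29, Ptpn14, Hs6st2 (a heparan sulfate 6-O-sulfotransferase), Trpm3 (a cation channel), Nlgn1 (a neuroligin of cell contacts) and Nav2, with smallest ratios from 9.70-fold to 13.5-fold.

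The named lower genes were few in UMIs. Dnah11, a dynein of cilia, had 0, 2 and 0 UMIs in tamsulosin, scopolamine and control members, while the other nuclei were at 29.7, 59.5 and 36.9 CPM. Lmx1b, a homeobox transcription factor, also had 0, 2 and 0 UMIs, while the others were at 27.7, 51.6 and 101 CPM. Creb3l1, a transcription factor of secretory cells, had 0, 2 and 2 UMIs, against 39.4, 45.8 and 70.4 CPM in the others. The other genes of this list were Slc5a9, Cmtm8, Ptprt, Tbc1d30 and Xrra1.

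The members' closeness to the myoepithelial-like cluster could be read against its own other nuclei. The deepest myoepithelial-like member had 7732 UMIs, because a deeper nucleus seldom reaches the 0.1% the rule asks for, while other nuclei of that cluster had up to 144993 UMIs. The 1040 other nuclei of the cluster within that depth were therefore used. Ntrk3 was at 3913 CPM in the 81 myoepithelial-like members and 2870 CPM in those other nuclei, Col4a6 at 1121 and 802 CPM, Trp63 at 986 and 763 CPM, and Acta2 at 547 and 324 CPM. These levels sum the 3 libraries, which enter the 2 sides in different proportions. Transcripts of tear proteins made up 16.8% of UMIs in the members and 24.1% in the other nuclei. The part of either in these gaps was not tested. The choosing genes differed far more, as the rule fixes: Sult5a1 was at 909 CPM in the members and 172 CPM in the other nuclei, and Pdzrn4 at 747 and 97.0 CPM. Set against all other nuclei of their own clusters, members had 56 of 6258 measured genes at least 2-fold higher in all 3 libraries (0.895%). That comparison was not limited to the members' depth, and its sides differed in makeup. In the myoepithelial-like cluster 81 members stood beside 1298 other nuclei, and in the Slit2 cluster 39 beside 86. The 56 are therefore not given as genes that mark members within a cluster.

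The cluster names rest on lists of markers. Over the myoepithelial list the larger cluster stood at a mean of 2.24 on the log2 scale above the median cluster, with 8 of 10 markers at 1 or more, and over the duct list at 0.00 with 0 of 15. Its leading genes were Ntrk3, Rgs6, Fhod3, Cacnb4, Adamtsl1, Kirrel3, Nkain3, Trp63, Myh11 and Col4a6. The smaller cluster stood at a mean of 2.67 over the basal list, with 9 of 10 markers at 1 or more, at 1.24 over the duct list, with 9 of 15, and at 0.97 over the myoepithelial list, with 4 of 10. Its leading genes, none of them on the basal, duct or myoepithelial list, were Klk1, Pdzrn4, Slit2, Dync1i1, Dgki, Vsnl1, Sult5a1, Galnt13, Rcan2 and Btbd11. Of the larger cluster's leading genes, Myh11 is on the myoepithelial list and Trp63 on the basal list. The smaller cluster's best list was thus the basal one. Because it held duct markers too, it is called here by genes, as the Slit2 and Tfcp2l1 cluster. Tfcp2l1 is on the duct list and was not among the leading genes. The 8 genes of the rule were left out of the clustering. The remaining 7 members, 3 of scopolamine and 4 of control, lay in other clusters. Of these 7, 1 lay in the macrophage-like cluster, 1 in a fibroblast-like cluster and 2 in an endothelial-like cluster.

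The 2 populations of members could be compared within the scopolamine and the control library; the tamsulosin library, with 3 Slit2-cluster members, was left aside. At least 2-fold higher in myoepithelial-like members in both libraries were 169 of 1990 measured genes (8.49%), and 90 (4.52%) were at least 2-fold lower. The genes of muscle contraction stood on one side. Myh11 had 141 and 148 UMIs in myoepithelial-like members of the scopolamine and control libraries, against 1 and 0 UMIs in Slit2-cluster members. Hgf, hepatocyte growth factor, had 78 and 58 UMIs against 0 and 0, and Ryr3 had 59 and 59 UMIs against 0 and 0. Prkg1, the cyclic GMP-dependent kinase of smooth muscle, had 372 and 675 UMIs (4271 and 7496 CPM) against 8 and 0 UMIs. These genes were picked by such summed levels, and for each of them nuclei without a UMI were found in both populations. Over the 3 libraries a Myh11 UMI was found in 72 of 81 myoepithelial-like members and 1 of 39 Slit2-cluster members. The shares were 61 of 81 and 0 of 39 for Hgf, and 51 of 81 and 0 of 39 for Ryr3. For Prkg1 they were 78 of 81 and 5 of 39.

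Other genes on that side were Adamtsl1, Nlgn1, Ctnnd2, Entpd1 (an enzyme that breaks down extracellular ATP), Adamts18, Gria4 (a glutamate receptor subunit), Rgs6 (a regulator of G protein signalling) and Postn (periostin, a matrix protein), each with 0 to 2 UMIs in the Slit2-cluster members of either library. With the 3 libraries summed, Acta2 was at 547 CPM in myoepithelial-like members, with a UMI in 50 of 81 (61.7%, 50.3 to 72.3), and at 15.5 CPM in Slit2-cluster members, with a UMI in 2 of 39 (5.13%, 0.627 to 17.3). The share in macrophage-like nuclei was 41 of 1618 (2.53%, 1.82 to 3.42), so the interval of the Slit2-cluster members held the background. Tagln, an actin-binding protein of smooth muscle, had 25 UMIs in myoepithelial-like members and 0 in Slit2-cluster members.

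On the other side stood Tfcp2l1, the duct transcription factor, with 5 and 2 UMIs (57.4 and 22.2 CPM) in myoepithelial-like members of the scopolamine and control libraries, against 113 and 14 UMIs (1127 and 712 CPM) in Slit2-cluster members. Kcnj16, an inward rectifier potassium channel, had 1 and 0 UMIs in myoepithelial-like members and 60 and 2 in Slit2-cluster members. Ccdc3 had 8 and 0 UMIs in myoepithelial-like members and 59 and 9 in Slit2-cluster members. Edar, the ectodysplasin receptor of skin appendage and gland development, had 1 and 1 UMIs in myoepithelial-like members and 26 and 2 in Slit2-cluster members. The rest of that list was Acsm1, Parm1, Ptpn13, Fam241a, Pdzd2, Grm8 (a metabotropic glutamate receptor), Prickle1 (of planar polarity) and Pde7a (a cyclic AMP phosphodiesterase). Slit2 itself, with the 3 libraries summed, was at 231 CPM in myoepithelial-like members and 1359 CPM in Slit2-cluster members. The control library's 9 Slit2-cluster members summed to 19663 UMIs, so a count of 2 there is weak.

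The split also ran through single nuclei. Of the myoepithelial-like members, 78 of 81 had more UMIs of Acta2, Myh11, Hgf and Fhod3 together than of Slit2, Tfcp2l1, Kcnj16 and Pde1a together, with medians of 13 and 0 UMIs. Of the Slit2-cluster members, 37 of 39 had more of the second set, with medians of 0 and 6 UMIs, and 2 had as many of each. These 8 genes were picked from the same nuclei after their values were seen, so the separation is a description of how far apart the populations lay and no support for it. Both sets were present in 35 of the 81 and in 14 of the 39 members.

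**Figure D2:**
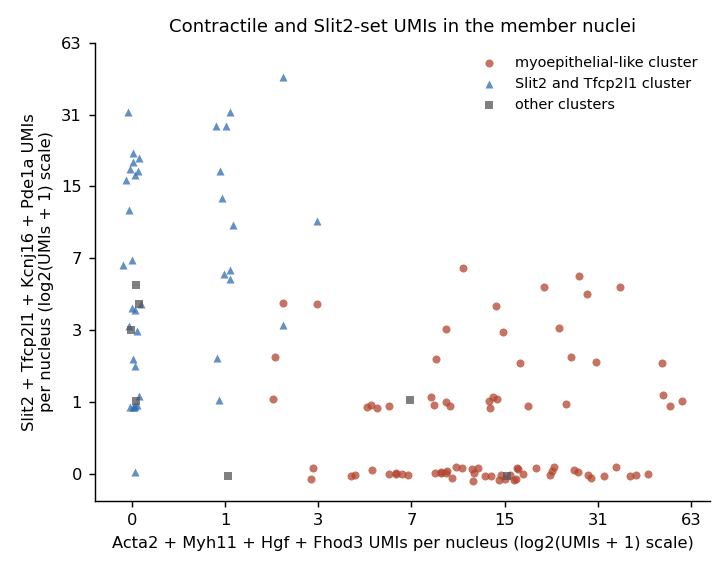
Each point is 1 of the 127 member nuclei; the horizontal axis gives the summed UMIs of Acta2, Myh11, Hgf and Fhod3 and the vertical axis those of Slit2, Tfcp2l1, Kcnj16 and Pde1a, both on a log2(UMIs + 1) scale with the UMIs printed and with small random offsets so that points do not hide each other. Nuclei of the myoepithelial-like cluster lie along the horizontal axis (78 of 81 have more of the first set) and those of the Slit2 and Tfcp2l1 cluster along the vertical axis (37 of 39 have more of the second).

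Of the 11 basal genes measured in that comparison, 0 were at least 2-fold higher or lower in myoepithelial-like members in both libraries, beside 8.49% and 4.52% over all genes, so the count is near the background. The list's median log2 ratio was 0.24 in scopolamine and 0.21 in control. The keratins of basal cells were scarce in these nuclei: Krt14 had a UMI in 7 of 81 myoepithelial-like members (8.64%, 3.55 to 17.0) and 4 of 39 Slit2-cluster members (10.3%, 2.87 to 24.2), against 11 of 1618 macrophage-like nuclei (0.680%, 0.340 to 1.21). The luminal keratin Krt19 had 2 UMIs in all members together. Mitochondrially encoded genes went with the myoepithelial-like members, with 6 of 10 measured at least 2-fold higher in both libraries, among them mt-Nd1, mt-Co2 and mt-Co3.

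**Figure D3:**
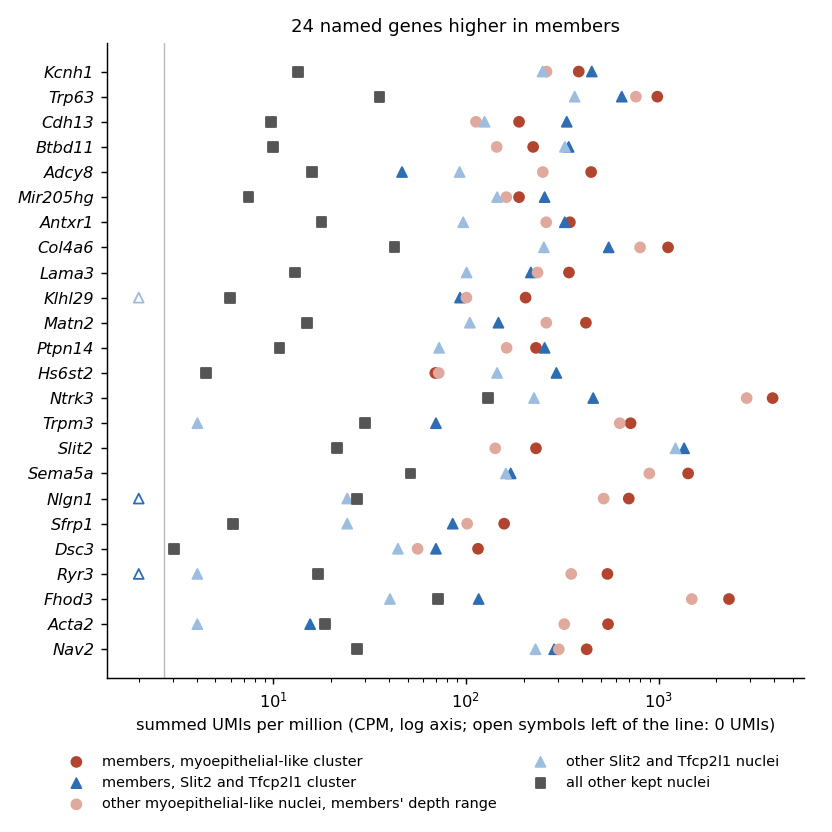
Level in CPM of summed UMIs (horizontal log axis) of 24 named genes higher in members (rows), all libraries together, in members of the myoepithelial-like cluster and of the Slit2 and Tfcp2l1 cluster, in the other nuclei of those clusters and in all other kept nuclei; open symbols left of the line had 0 UMIs. Klhl29 is at 204 CPM in members and 101 CPM in other nuclei of the myoepithelial-like cluster, Ntrk3 at 3913 and 2870 CPM, whereas Ryr3 and Nlgn1 have 0 UMIs in Slit2-cluster members and Acta2 is at 547 CPM in myoepithelial-like members and 15.5 CPM in Slit2-cluster members.

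The other nuclei of the Slit2 and Tfcp2l1 cluster resembled its members in Tfcp2l1 (1064 CPM in members, 1339 in others) and Slit2 (1359 and 1226 CPM), and differed in a few genes. Klk1, tissue kallikrein, a serine protease of gland ducts, had 0 UMIs in all 39 members. Among the nuclei of that cluster that were not members, it had 379 UMIs in the 20 of the tamsulosin library, all in 5 of them, and 0 in those of the scopolamine and control libraries. Only 3 of the 39 members came from the tamsulosin library, with 8908 UMIs, for which a count of 0 allows up to 337 CPM. Slc12a2, the sodium, potassium and chloride cotransporter, had 1, 7 and 0 UMIs (112, 69.8 and 0 CPM) in members of the tamsulosin, scopolamine and control libraries, against 2743, 717 and 501 CPM in the others of that cluster, and was lower in the members of each library. Ppargc1a, a coactivator of mitochondrial genes, had 0 UMIs in the members of each library, against 67, 12 and 2 UMIs in the others, so most of its UMIs came from the tamsulosin library, which held few members.

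Markers of other cell types were mostly near 0 over all members together. The 7 members outside both main clusters differed in the endothelial list. It made up 0.122% of their UMIs in scopolamine and 0.133% in control, against 0.00913% and 0.00696% in the other kept nuclei. Of the macrophage list, C1qa and Cd163 had 0 UMIs in all members, and the summed list made up 0.00328% of UMIs in tamsulosin members, 0.00960% in scopolamine members and 0.00749% in control members, against 0.155%, 0.174% and 0.166% in macrophage-like nuclei. Of the T or NK list, 5 of 7 markers had 0 UMIs, Cd3e and Themis among them. Of the endothelial list, Ptprb had 0, Cdh5 3 and Pecam1 2 UMIs, but Flt1 had 49 UMIs, in 29 members, and of the pericyte list 4 of 5 had 0. The rule itself held 6 such genes low. The fibroblast list made up 0.0416%, 0.0258% and 0.0316% of UMIs in tamsulosin, scopolamine and control members, 51 of its UMIs being Fbn1 in the myoepithelial-like members, and Pdgfra had 1 UMI.

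Sult5a1's level followed that of a few other genes over the clusters of the whole series. Over 45 combinations of cluster and library with at least 20 nuclei, the genes with the highest Spearman correlation to Sult5a1 were Gask1b (0.87), P3h2 (0.80), Pcsk5 (0.80), Ntrk3 (0.79) and Lhfp (0.79). The points share libraries, depth and the nuclei that chose Sult5a1, and no test was made.

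The receptors that the 2 drugs act on were looked up in the same nuclei. Chrm3, the muscarinic receptor M3, had a UMI in all 127 members. It was at 5672 CPM (5170 to 6210) in myoepithelial-like members of tamsulosin, 8565 (7962 to 9203) in those of scopolamine and 7618 (7059 to 8210) in those of control. In Slit2-cluster members it was at 6399, 4609 and 4018 CPM in the tamsulosin, scopolamine and control libraries, and in macrophage-like nuclei at 1490, 1991 and 2671 CPM. Adra1a, an alpha-1 adrenergic receptor, had 0, 12 and 10 UMIs in members of the tamsulosin, scopolamine and control libraries, which is 0, 60.6 (31.3 to 106) and 83.2 (39.9 to 153) CPM. A count of 0 in the tamsulosin members allows up to 32.8 CPM. The macrophage-like nuclei were at 72.0, 103 and 204 CPM of Adra1a, above the members in each library. The members' Adra1a therefore did not exceed this background, and the part of free RNA in it was not tested. Adra1b had 1 UMI in all members together.

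The question the design puts to these nuclei is how they differed in the dry eye model and with tamsulosin in that model. Members of the scopolamine and control libraries were compared first. Of 2146 measured genes, 140 (6.52%) stood 2-fold or more above and 120 (5.59%) 2-fold or more below in scopolamine members, measured from the median gene, which stood at -0.13 on the log2 scale. The makeup of the members moved with this: 27 of 60 scopolamine members and 9 of 37 control members lay in the Slit2 and Tfcp2l1 cluster. Within the myoepithelial-like members, 30 of scopolamine and 24 of control, 71 of 1086 genes (6.54%) were higher and 43 (3.96%) lower, relative to a median of -0.27. Ratios below are of CPM, not set against that median, whereas counts of genes past 2-fold are measured from the median gene of their comparison.

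Genes named as higher in scopolamine members were Parm1, Kcnj16, Samd12, Scgb2b20, Grm8, Ccdc3, Slit2, Bnc2, Calr, Cast, Atp1b3 and Cpe. Parm1 had 41 UMIs in scopolamine members and 1 in control members, and Kcnj16 61 and 2, but 38 and 60 of those scopolamine UMIs lay in Slit2-cluster members. Slit2 had 183 UMIs (924 CPM) in scopolamine members and 25 (208 CPM) in control members, while in myoepithelial-like members it had 19 and 15 UMIs, a ratio of 1.31 (0.631 to 2.77). Of the 12 genes, 4 had an interval above 1 within the myoepithelial-like members: Scgb2b20, Ccdc3, Calr (calreticulin, a chaperone of the endoplasmic reticulum) and Cpe (carboxypeptidase E). Grm8 and Bnc2 had the opposite sign there, on 1 UMI and 4 UMIs in all.

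The 12 genes named as lower in scopolamine members were Ngly1, Nr1d2, Pgm5, Gria4, Efr3a, Sned1, Lars2, Plcb4, Pde7b, Kitl, Prkg1 and Rgs6. All 12 had an interval below 1 within the myoepithelial-like members. Those members were 30 of the 60 scopolamine and 24 of the 37 control nuclei that picked the genes, so this is no separate support. Plcb4, a phospholipase C that Gq-coupled receptors activate, had 137 UMIs (1573 CPM) in myoepithelial-like members of scopolamine and 337 (3743 CPM) in those of control, 2.38-fold lower (1.95 to 2.92). Kitl, the ligand of the receptor Kit, had 83 UMIs (953 CPM) in scopolamine and 183 (2032 CPM) in control, 2.13-fold lower (1.64 to 2.80). Prkg1 was 1.76-fold lower (1.54 to 2.0) there, and 2.84-fold lower (2.51 to 3.23) when all members were taken. For Prkg1, Rgs6 and Kitl the difference was thus larger over all members, whose makeup differed, than within the myoepithelial-like ones.

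**Figure D4:**
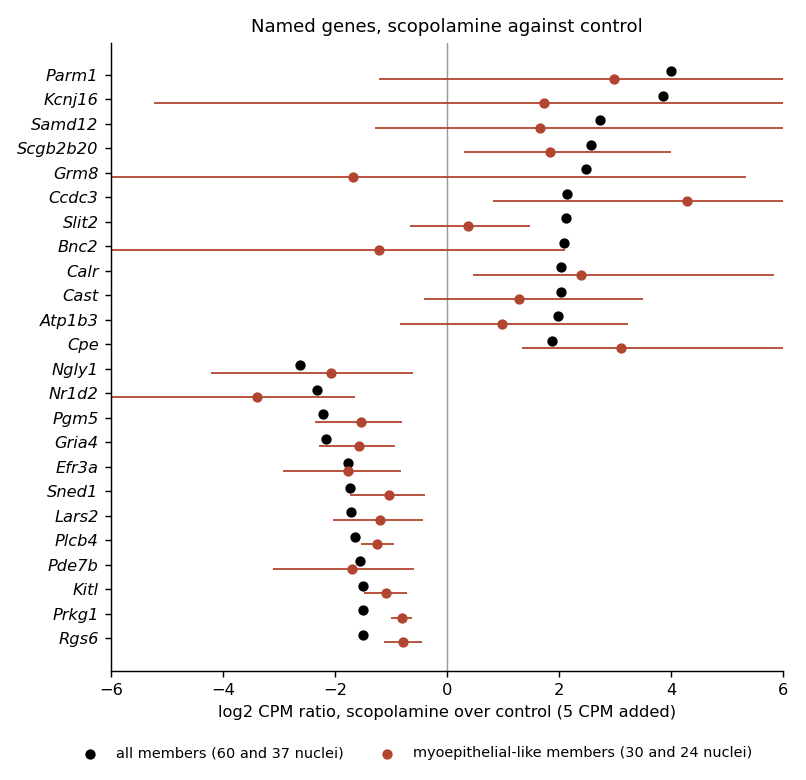
Log2 ratio of CPM with 5 CPM added (horizontal axis), scopolamine over control, for the 24 named genes (rows), in all members (black, 60 and 37 nuclei) and in members of the myoepithelial-like cluster (red, 30 and 24 nuclei); red lines are exact 95% intervals of the ratio without the added 5 CPM, for counting error only, ended at the edge of the plot. The lines of all 12 lower genes stay left of 0, while those of Parm1, Kcnj16, Samd12, Grm8, Slit2, Bnc2, Cast and Atp1b3 cross it.

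Taking the same naming rule to the myoepithelial-like members alone, a step chosen after the 2 populations had been seen, gave 12 higher and 12 lower genes. Igfbp5, a binding protein of insulin-like growth factors, had 54 UMIs (620 CPM) in scopolamine and 10 (111 CPM) in control, a ratio of 5.58 (2.81 to 12.3). In the other nuclei of that cluster within the members' depth, which the rule had not picked, Igfbp5 was at 291 CPM in scopolamine and 150 CPM in control, a ratio of 1.94 (1.58 to 2.39). Trpm3 was at 976 and 422 CPM in members, a ratio of 2.31 (1.56 to 3.49), and 694 and 444 CPM in the other nuclei, a ratio of 1.56 (1.38 to 1.77), scopolamine before control. Macrophage-like nuclei moved the same way at lower levels, with 25.7 and 6.86 CPM of Igfbp5 and 21.9 and 6.10 CPM of Trpm3 in scopolamine and control. Adgrl3, a latrophilin of cell adhesion, was at 1550 CPM in scopolamine members and 788 CPM in control members, a ratio of 1.97 (1.46 to 2.66), and macrophage-like nuclei at 103 and 77.8 CPM. Dsp (desmoplakin) was at 448 and 178 CPM in members, but at 204 and 224 CPM in the other nuclei, in the same order.

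Of those 12 higher genes, 9 had an interval above 1 in the other nuclei of the cluster as well, and Dsp, Stat3 and Lims1 did not. All 12 lower genes, among them Efr3a, Fndc3a, Gria4, Pgm5, Zfp407, Chchd3, Gsk3b, Iqgap2, Samd4, Plcb4 and Insr, had an interval below 1 there, but the median gene of those other nuclei stood at -0.31 on the log2 scale, a ratio of 0.805. Measured from that median, 5 of the 12 lower genes (Efr3a, Fndc3a, Gria4, Samd4 and Plcb4) and the same 9 of the 12 higher ones had an interval beyond it. Gria4 was at 299 CPM in scopolamine members and 900 CPM in control members, 3.01-fold lower (1.92 to 4.89), and in the other nuclei at 331 and 633 CPM, 1.91-fold lower (1.68 to 2.18). Fndc3a was 3.39-fold lower (2.04 to 5.88) in scopolamine members and was also lower in macrophage-like nuclei, at 464 CPM in scopolamine and 723 CPM in control. Zfp407, Chchd3, Iqgap2, Samd4, Plcb4 and Insr were lower in macrophage-like nuclei of scopolamine than of control as well.

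Genes of the circadian clock were on both sides. Arntl, the activator also called Bmal1, had 12 UMIs (138 CPM) in myoepithelial-like members of scopolamine and 0 in those of control. The other nuclei of that cluster within the members' depth had 97.6 CPM of Arntl in scopolamine and 14.5 CPM in control, and macrophage-like nuclei 126 and 35.8 CPM. Nr1d2, a repressor of the clock, had 2 UMIs (23.0 CPM) in myoepithelial-like members of scopolamine and 26 (289 CPM) in those of control, 12.6-fold lower (3.15 to 109), and was at 57.0 and 263 CPM in the other nuclei of the cluster and 43.2 and 233 CPM in macrophage-like nuclei. In the tamsulosin library Nr1d2 had 7 UMIs (84.8 CPM) and Arntl 2 (24.2 CPM) in these members. The times at which glands were taken are not given in the sources used here, and their part in the result was not tested. Of the whole clock list, 6 genes were measured over all members. Arntl and Clock were at least 2-fold higher in scopolamine and Nr1d2 and Tef lower, measured from the median gene. Over all genes there, 6.52% were higher and 5.59% lower. Within the myoepithelial-like members 3 genes of the list were measured, of which 0 were higher and 0 lower. Arntl and Nr1d2 had too few UMIs in those members to count as measured, so their values there are weak.

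In the list of the amino acid response and the unfolded protein response, 7 genes were measured over all members. Hspa5, Hsp90b1 and Calr, chaperones of the endoplasmic reticulum, were at least 2-fold higher in scopolamine members, measured from the median gene, and none was lower. The list's median was 0.73 relative to the median gene, beside 0 over all genes. Within the myoepithelial-like members 3 genes of the list were measured, of which Hspa5 and Hsp90b1 were higher and Ern1 lower. Over all genes there, 6.54% were higher and 3.96% lower. Hspa5 had 30 UMIs (344 CPM) in these members of scopolamine and 14 (155 CPM) in those of control, a ratio of 2.22 (1.14 to 4.52). Hspa5 was at 240 and 194 CPM in macrophage-like nuclei, in the same order. In the Wnt, FGF and BMP and TGF-beta lists none of the 7, 5 and 4 measured genes reached 2-fold in this comparison over all members, which is near the background of 6.52% higher and 5.59% lower over all genes. No interferon-stimulated or immediate early gene was measured.

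Tamsulosin members were then set against scopolamine members, where 151 of 1758 measured genes (8.59%) stood 2-fold or more above and 149 (8.48%) 2-fold or more below, measured from the median gene at -0.43. The makeup moved with this as well, with 3 of 30 tamsulosin members and 27 of 60 scopolamine members in the Slit2 and Tfcp2l1 cluster. Within the myoepithelial-like members, 27 of tamsulosin and 30 of scopolamine, 49 of 818 genes (5.99%) were higher and 31 (3.79%) lower, relative to a median of -0.33. Of the 12 genes named as higher over all members, Rgs6, Cacnb4, Adamtsl1, Hgf, Kitl, Cacna1c, Nrg1, Prkg1 and Gria4 were between 2.03-fold and 2.61-fold higher in tamsulosin, but between 1.04-fold and 1.40-fold within the myoepithelial-like members. Prkg1, for example, was at 4014 CPM in tamsulosin members and 1975 CPM in scopolamine members, and at 4448 and 4271 CPM within the myoepithelial-like members, a ratio of 1.04 (0.899 to 1.21).

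The remaining named higher genes, Wfdc18, Scgb2a2 and Tpt1, had an interval above 1 within the myoepithelial-like members. Those members were 27 of the 30 tamsulosin nuclei that picked the genes, so this is no separate support. Wfdc18, a secreted whey acidic protein, was at 3248 CPM in tamsulosin and 425 CPM in scopolamine, a ratio of 7.65 (5.41 to 11.1). Macrophage-like nuclei of the same libraries were at 2607 and 288 CPM of Wfdc18, and 275 and 110 CPM of Scgb2a2, a secretoglobin, against 388 and 115 CPM in the members. Cyp2f2, a cytochrome P450, was at 1006 and 91.9 CPM in the members and 893 and 143 CPM in macrophage-like nuclei, and Bpifa2, a secreted protein, at 388 and 0 CPM in the members and 359 and 0 CPM in macrophage-like nuclei. The levels in nuclei that should lack these transcripts moved with those in the members, and their part in the result was not tested.

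The 12 genes named as lower over all members were Parm1, Cdo1, Reps1, Ptpn13, Adamtsl3, Sh3rf1, Myo1d, Hpcal1, Rbpj, Dusp16, Fam241a and Mgat5, each with 2 to 4 UMIs in tamsulosin members and 30 to 60 in scopolamine members. Within the myoepithelial-like members 4 of them, Reps1, Adamtsl3, Sh3rf1 and Dusp16, had an interval below 1, and Adamtsl3, a secreted matrix protein, was 7.89-fold lower (2.41 to 40.9) with 3 UMIs in tamsulosin and 25 in scopolamine. Rbpj, the transcription factor of Notch signalling, had 4 UMIs in tamsulosin members and 57 in scopolamine members over all, but 2 and 6 within the myoepithelial-like members.

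By the same rule within the myoepithelial-like members, 12 genes were named as lower with tamsulosin: Igfbp2, Elp4, Eda, Acta2, Phip, Itsn2, Rbfox2, Hs6st3, Chd9, Nlgn1, Galnt18 and Mast4. Acta2 had 18 UMIs (218 CPM) in tamsulosin and 60 (689 CPM) in scopolamine, 3.16-fold lower (1.84 to 5.68), while control members had 64 UMIs (711 CPM). In the other nuclei of the cluster within the members' depth Acta2 was 1.42-fold lower (1.22 to 1.65), at 240 CPM in tamsulosin and 340 CPM in scopolamine. Myh11 did not follow, with 1406, 1619 and 1644 CPM in myoepithelial-like members of tamsulosin, scopolamine and control. Igfbp2 had 4 UMIs in tamsulosin and 31 in scopolamine, 7.34-fold lower (2.60 to 28.6), and was 1.45-fold lower (1.15 to 1.82) in the other nuclei. Nlgn1 was 2.53-fold lower (1.64 to 3.98) in members and 1.02-fold lower (0.911 to 1.15) in the other nuclei. Macrophage-like nuclei were at 4.83 CPM of Acta2 in tamsulosin and 17.5 CPM in scopolamine, so a lower level was seen outside the members too. Of the 12 genes, 7 had an interval below 1 in the other nuclei of the cluster, but their median gene stood at -0.24 on the log2 scale, a ratio of 0.849, and measured from it 1 of the 12, Acta2, had an interval below the median.

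The 6 genes named as higher within the myoepithelial-like members were Wfdc18, Scgb2a2, Tpt1, Kitl, Trp63 and Rgs6. Trp63 was at 1248 CPM in tamsulosin and 919 CPM in scopolamine members, a ratio of 1.36 with an interval that barely left out 1 (1.00 to 1.84), and at 828 and 801 CPM in the other nuclei of the cluster. In those other nuclei Kitl had a ratio of 0.885 (0.818 to 0.958) and Rgs6 one of 0.777 (0.721 to 0.839), beside the median gene's 0.849. Erbb4, a receptor of neuregulins, was lower with tamsulosin: it had 21 UMIs (255 CPM) in tamsulosin and 66 (758 CPM) in scopolamine, 2.98-fold lower (1.80 to 5.12), with 81 UMIs (900 CPM) in control members. Erbb4 was at 287 and 682 CPM in the other nuclei of the cluster and 738 and 1251 CPM in macrophage-like nuclei, tamsulosin before scopolamine.

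Tamsulosin and control share both libraries with the comparisons above, and the counts are given beside them only: 117 of 1270 measured genes (9.21%) stood above by that margin and 133 (10.5%) below it over all members, and 95 of 984 (9.65%) and 83 (8.43%) within the myoepithelial-like members. Members of the Slit2 and Tfcp2l1 cluster, 27 of scopolamine and 9 of control, had 89 of 699 genes (12.7%) higher and 56 (8.01%) lower. With 9 nuclei in one group these rest on few UMIs, and no gene is named from them.

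Transcripts of tear proteins made up 28.0% of UMIs in tamsulosin members, 15.4% in scopolamine members and 5.92% in control members. The macrophage-like nuclei held 26.6%, 19.1% and 5.97%, and all other kept nuclei 32.9%, 26.1% and 6.27%, in the same order. Measured from the median gene, 11 of the 17 measured genes of the tear list were at least 2-fold higher in scopolamine than in control members. Lpo (lactoperoxidase) was the 1 that was lower, beside 6.52% higher and 5.59% lower over all genes. In tamsulosin against scopolamine members 14 of 17 were higher, measured in the same way, beside 8.59% over all genes. Mucl2, a mucin-like tear protein and the most abundant of them, was at 90899 CPM in tamsulosin, 49865 CPM in scopolamine and 20540 CPM in control members, and at 87598, 61454 and 20156 CPM in macrophage-like nuclei. The members' share of tear transcripts lay below that of macrophage-like nuclei in scopolamine and control and above it in tamsulosin, and macrophages do not make tears. The part of free RNA in these differences was not tested.

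**Figure D5:**
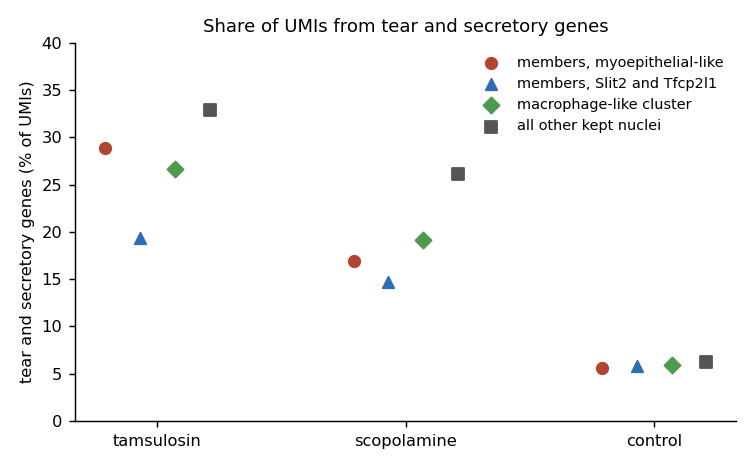
Share of UMIs from the list of tear and secretory genes (%, vertical axis from 0) by library (horizontal axis) in members of the myoepithelial-like cluster and of the Slit2 and Tfcp2l1 cluster, in the macrophage-like cluster and in all other kept nuclei; each point is 1 library, with no replicate. The 4 groups of nuclei lie between 5.6% and 6.27% in control and between 19.3% and 32.9% in tamsulosin.

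Mitochondrially encoded transcripts differed too. The median share per member was 0.592% of UMIs in tamsulosin, 0.317% in scopolamine and 0.539% in control. Over all members 9 of 10 measured genes were at least 2-fold higher in tamsulosin than in scopolamine, beside 8.59% of all measured genes. This was measured from the median gene, at -0.43 on the log2 scale. Within the myoepithelial-like members 5 of 9 were, beside 5.99%, measured from a median of -0.33. There mt-Co2, counted among these 5, was at 1697 CPM in tamsulosin, 953 in scopolamine and 1544 in control. In plain CPM its tamsulosin and scopolamine levels lay less than 2-fold apart. In macrophage-like nuclei mt-Co2 was at 894, 384 and 300 CPM in the same order. Transcripts of mitochondria do not belong to the nucleus, and the part that cytoplasm kept with the nuclei has in this was not tested.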

How the data were processed

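Nuclear RNA of mouse lacrimal gland was measured in 3 droplet libraries (10x 3' v3), 1 for each group. The deposited values are whole-number UMI counts per gene and barcode, made by the authors with Cell Ranger 5.0.0 against mm10, per the submitters' processing notes; the feature and barcode lists name rows and columns. Whether intronic reads were counted is not given in the sources used here. The labels' protocols also name a sort of RFP+ nuclei and plates, and whether these apply to the 3 libraries is unsettled. The libraries held 12322, 10024 and 7253 barcodes and 57969348, 35237256 and 33500727 UMIs (tamsulosin, scopolamine, control), with lowest totals of 1534, 967 and 1492 UMIs. All columns belonged to these samples.

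The members and all gene lists (24 lists and 15 marker lists) were chosen with earlier results of these data known. UMIs were summed over nuclei of a population and library. A gene was measured with at least 30 UMIs over the nuclei compared and a mean of at least 20 CPM; log2 ratios used CPM + 5, and 2-fold was read relative to the median measured gene between libraries. With 1 library a group no test was run. Named against other nuclei were the 25 genes with the highest smallest ratio over the 3 libraries and the 8 with the lowest largest ratio; between libraries, 12 in each direction by ratio, with at least 30 UMIs in the higher library, an interval that leaves out 1 and a level there at or above that of the other nuclei. Gene models without a name, mitochondrial, ribosomal, globin and sex chromosome marker genes were not named, and a few genes that the rules picked are not reported here. Genes of the basal list and examples of other lists were named as well. The myoepithelial-like and Slit2 populations, the values within them and the paired gene sets were chosen after seeing the data.

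Nuclei were clustered without the 8 rule genes on 1992 variable genes (30 principal components, 15 neighbours, Leiden resolution 1, 22 clusters; resolution 2 gave 28). Scrublet called 0 doublets in each library and so had not worked; its highest scores were left out only as an alternative. No empty droplets were held, so free RNA was not removed. The calculation was tested on simulated data. Genome positions came from GENCODE on GRCm38 and promoters from RefSeq. Python 3.11.15, numpy 2.4.6, scipy 1.17.1, pandas 2.3.3, scanpy 1.11.5, scikit-learn 1.9.0, igraph 0.11.9 and matplotlib 3.10.9 were used.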

Additional observations from a re-analysis of the deposited data

Results flagged for a closer look

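Some named genes stood on opposite sides in members and in the other kept nuclei of the same libraries. The values are log2 ratios of CPM + 5. The difference between members and other nuclei was not tested, and the share of Slit2-cluster nuclei among members moved with each comparison. In scopolamine against control, Grm8 was 2.48 in members and -0.27 in other nuclei, and Cast 2.03 and -0.09. Pgm5 was -2.21 in members and 0.25 in other nuclei, Kitl -1.51 and 0.60, Prkg1 -1.51 and 0.28, and Rgs6 -1.50 and 0.19.

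In tamsulosin against scopolamine, genes of the myoepithelial-like members were above 0 in members and below 0 in other nuclei. Gria4 was 1.36 and -0.59, Rgs6 1.34 and -1.20, Cacnb4 1.28 and -1.22, Adamtsl1 1.17 and -1.10, Hgf 1.17 and -0.96, Kitl 1.11 and -0.79, Cacna1c 1.09 and -1.14, Nrg1 1.08 and -0.14, and Prkg1 1.02 and -0.77, members first. The opposite held for Parm1 at -2.98 and 0.40, Ptpn13 at -2.76 and 0.56, Myo1d at -2.62 and 0.54, and Fam241a at -2.54 and 0.30.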

How the results depend on the processing

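The share of nuclei meeting the rule (0.25% in tamsulosin, 0.600% in scopolamine, 0.514% in control) depends on its thresholds and on depth. At 5 UMIs and 0.2% of UMIs it was 0.0333%, 0.180% and 0.181%; at 2 UMIs and 0.05% it was 0.699%, 1.24% and 0.917%. With at least 1 UMI of each gene it was 0.158%, 0.360% and 0.417%, thinned to 1500 UMIs 0.0915%, 0.615% and 0.322% in tamsulosin, scopolamine and control, and among nuclei of at least 1600 UMIs 0.252%, 1.04% and 0.561%. Myoepithelial-like members alone gave 0.225%, 0.300% and 0.334%, and Slit2-cluster members alone 0.0250%, 0.270% and 0.125%. The 438 genes higher in members were 289 under the stricter rule, 213 for Slit2-cluster members alone and 56 against other nuclei of the same clusters at all depths.

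The counts past 2-fold (260 in scopolamine against control, 300 in tamsulosin against scopolamine, 250 in tamsulosin against control) were 115, 92 and 108 after thinning, 89, 91 and 69 under the stricter rule, 37, 60 and 51 with at least 100 UMIs, and 4708, 5573 and 4857 with no filter. Within the myoepithelial-like members 114 genes passed in scopolamine against control and 80 in tamsulosin against scopolamine. Within the Slit2-cluster members 145 passed in scopolamine against control and 27 in tamsulosin against control. Fewer nuclei or genes enter each of these, except with no filter.

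Signs turned under some settings, and the cause was not tested. Under the stricter rule these were Cdh13 (-1.17), Dsc3 (-0.48) and Ryr3 (-1.58) against other nuclei (smallest log2 ratio), and Hgf (-0.57) and Dusp16 (0.52) in tamsulosin against scopolamine. Within myoepithelial-like members they were Grm8 (-1.69) and Bnc2 (-1.22) in scopolamine against control. Within Slit2-cluster members they were Klhl29 (-0.79), Matn2 (-1.96), Trpm3 (-2.63), Sema5a (-3.06), Sfrp1 (-1.09), Dsc3 (-0.46) and Acta2 (-2.77) against other nuclei, Kitl (0.38), Prkg1 (4.08) and Rgs6 (2.32) in scopolamine against control, and Rgs6 (-2.32), Cacnb4 (-2.80), Adamtsl1 (-2.32), Kitl (-0.80), Cacna1c (-2.32), Nrg1 (-1.58) and Prkg1 (-4.08) in tamsulosin against scopolamine.

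No paired analysis was possible because each group has 1 library.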
